A study of Mus musculus with 4 samples.

Results

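The genes described here are *Srf*, which codes for serum response factor (SRF), and 9 genes known as targets of SRF or as mechanosensitive genes of muscle, namely *Actb*, *Actg1*, *Fhl2*, *Ankrd1*, *Ankrd2*, *Csrp3*, *Tagln*, *Ctgf* and *Cyr61*. These 10 of 21911 protein-coding genes were chosen by name. The mark measured was H3S10ph, a phosphate on serine 10 of histone H3, and it was read from the peaks that overlapped each gene body or the 5 kb on either side of it, a stretch called the gene's window below. The 4 ChIP-seq samples came from gastrocnemius muscle of 5-month-old male C57BL/6 mice, and each sample pooled muscles of 6 mice. The 2 stimulated samples were taken immediately after 50 eccentric contractions of 1 leg, one every 30 s, driven by 600-ms tetani at 100 Hz. The 2 unstimulated samples were the contralateral muscles, so both conditions shared the anaesthesia with xylazine and Zoletil. For the stimulation the paper describes surgery that placed wires beside the sciatic nerve and cut the common peroneal nerve. It mentions none on the other leg, so effects of surgery and of contractions cannot be told apart. Whole muscle was used, so a mark on more nuclei and more of the mark in each nucleus cannot be told apart, and neither can a mark in fibres and one in vascular or connective tissue cells.

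SRF is a transcription factor of the MADS-box family that binds a short AT-rich element, the CArG box. Its coactivators MRTF-A and MRTF-B are held in the cytoplasm by monomeric actin and move to the nucleus when actin polymerises, so that mechanical load can reach the genome through the cytoskeleton. *Srf* itself, the cytoplasmic actins and many muscle structural genes carry CArG boxes, while *Ctgf*, *Cyr61* and *Ankrd1* are also known targets of YAP and TEAD, the effectors of the Hippo pathway. H3S10ph is placed on genes by kinases downstream of MAP kinases and accompanies the opening of chromatin at rapidly induced genes.

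The question was which of these genes carried the mark in unstimulated muscle and which carried it after the contractions. No gene of the 10 had overlapping peaks in the 2 stimulated samples, which 1.28% of all protein-coding genes had. No peak in their windows had a deposited −log10 p of at least 3, the value that corresponds to the p cutoff stated in the methods. Among all peaks, 2.93% to 17.7% of a list reached it. *Actb*, *Fhl2* and *Ctgf* had a peak in both stimulated lists, *Srf*, *Ankrd1*, *Ankrd2*, *Csrp3* and *Cyr61* in stimulated replicate 2 alone, *Tagln* in unstimulated replicate 2 alone, and *Actg1* in none. Without stimulation, *Fhl2* was marked in both lists and *Actb* in replicate 2.

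Promoter sequences were taken from RefSeq (GRCm38.p6, the same coordinates as mm10), in which 7 of the 10 genes were matched, some with more than 1 start. *Actb*, *Tagln* and *Ctgf* were not matched. The 250 bases before each start were searched for the CArG box, which reads alike on both strands, for the letters GGAATG bound by TEAD factors (both strands), and for TGANTCA (both strands), bound by AP-1. A CArG box was found before *Srf*, *Actg1* and *Fhl2*, while 1.47% of the 32851 promoters of that length hold one. GGAATG was found before *Ankrd1* and *Cyr61*, against 12.6% of all promoters, and TGANTCA before none, against 6.75%. The motifs did not overlap each other in these sequences. The promoters are shown because they say where SRF or TEAD could bind relative to the peaks. Each is printed 5′ to 3′ on the minus strand, and capitals mark a CArG box in *Srf*, *Actg1* and *Fhl2* and GGAATG or its reverse complement in *Ankrd1* and *Cyr61*.
*Srf*, chr17:46556163-46556412: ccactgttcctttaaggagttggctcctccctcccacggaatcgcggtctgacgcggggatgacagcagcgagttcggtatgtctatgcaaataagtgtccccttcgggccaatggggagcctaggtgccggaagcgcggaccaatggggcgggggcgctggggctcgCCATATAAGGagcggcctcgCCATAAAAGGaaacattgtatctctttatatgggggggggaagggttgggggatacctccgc
*Actg1*, chr11:120348496-120348745: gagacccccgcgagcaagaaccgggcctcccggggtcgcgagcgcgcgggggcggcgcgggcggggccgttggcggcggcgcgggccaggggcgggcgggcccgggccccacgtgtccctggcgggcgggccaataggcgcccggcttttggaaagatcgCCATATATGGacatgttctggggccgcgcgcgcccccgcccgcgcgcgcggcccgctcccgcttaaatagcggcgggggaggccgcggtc
*Fhl2*, inner start, chr1:43163962-43164211: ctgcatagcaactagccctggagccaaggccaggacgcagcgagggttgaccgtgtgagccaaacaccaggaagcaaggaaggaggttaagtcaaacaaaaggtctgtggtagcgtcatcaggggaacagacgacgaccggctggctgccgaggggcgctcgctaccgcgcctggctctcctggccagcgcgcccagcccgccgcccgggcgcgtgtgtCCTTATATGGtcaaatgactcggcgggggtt
*Ankrd1*, chr19:36119845-36120094: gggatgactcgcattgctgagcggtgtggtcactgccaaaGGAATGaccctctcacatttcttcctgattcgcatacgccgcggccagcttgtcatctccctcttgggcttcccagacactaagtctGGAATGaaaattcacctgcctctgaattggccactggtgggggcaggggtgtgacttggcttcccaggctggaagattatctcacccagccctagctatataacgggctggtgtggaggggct
*Cyr61*, chr3:145649986-145650235: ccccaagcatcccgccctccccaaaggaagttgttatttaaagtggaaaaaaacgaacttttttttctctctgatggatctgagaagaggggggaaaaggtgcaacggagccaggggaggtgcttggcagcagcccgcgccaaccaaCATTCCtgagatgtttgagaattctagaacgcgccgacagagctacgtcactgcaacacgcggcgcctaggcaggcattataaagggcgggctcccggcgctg

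The lists of unstimulated replicate 1 and 2 and stimulated replicate 1 and 2 held 9094, 32740, 10901 and 40683 peaks, and replicates of a condition differed more in length than the conditions did. Unstimulated replicate 1 stood apart from the others with 522 peaks on chromosome X, against 16 to 19 in the other 3 lists, although all mice were labelled male. The 10 genes lie on autosomes, and this list held 1 of their 26 peaks, on *Fhl2*. All lists reached down to a −log10 p of about 2, whereas the methods state a cutoff that corresponds to 3. They do not say whether the value deposited for a broad peak is the one on which the cutoff was set. A deposited value below 3 thus does not show that a peak missed the cutoff. The lists give no read counts, so the depth is unknown. Where no peak was called, the mark was not detected, which does not show that it was absent.

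Of the 10 genes, 1 had a peak in its window in unstimulated replicate 1, where 14.0% of all protein-coding genes had one, and 3 in unstimulated replicate 2, where 39.3% had one. In stimulated replicate 1 there were 3 of 10, against 19.9% of all genes, and in stimulated replicate 2 there were 8 of 10, against 52.5%. The mean was 5.5 ± 3.54 genes (SD, n = 2) in stimulated and 2 ± 1.41 (SD, n = 2) in unstimulated muscles, a difference of 3.5 genes that was no larger than the SD of the stimulated replicates. Between samples of the same replicate number, the stimulated list held 2 more genes in replicate 1 and 5 more in replicate 2. The labels do not say whether equal numbers mark the same mice, and the lists of replicate 2 were the longer ones in both conditions. *Fhl2* spans 73911 bp and the other 9 genes are of at most 20 kb, a limit chosen after the data had been seen. Of these 9 genes 0, 2, 2 and 7 had a peak in the 4 lists, in the order above, against 4.37%, 21.4%, 9.01% and 34.8% of the 11759 protein-coding genes of that size. By either count the shares in the unstimulated lists lay near those of all genes, and the shares in stimulated replicate 2 lay above them. In stimulated replicate 1 they also lay above, but they rest on 3 and 2 genes, too few to tell them from the background. Whether the shares in stimulated replicate 2 differ from the background was not tested, and the genes were chosen with earlier results known. *Ankrd1*, *Ankrd2* and *Csrp3* counted in that list only through peaks with a fold of 2.01, which 8179 of its peaks shared. With peaks of a −log10 p of at least 2.5, the 4 lists held 1, 2, 2 and 3 of the 10 genes.

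**Figure D1:**
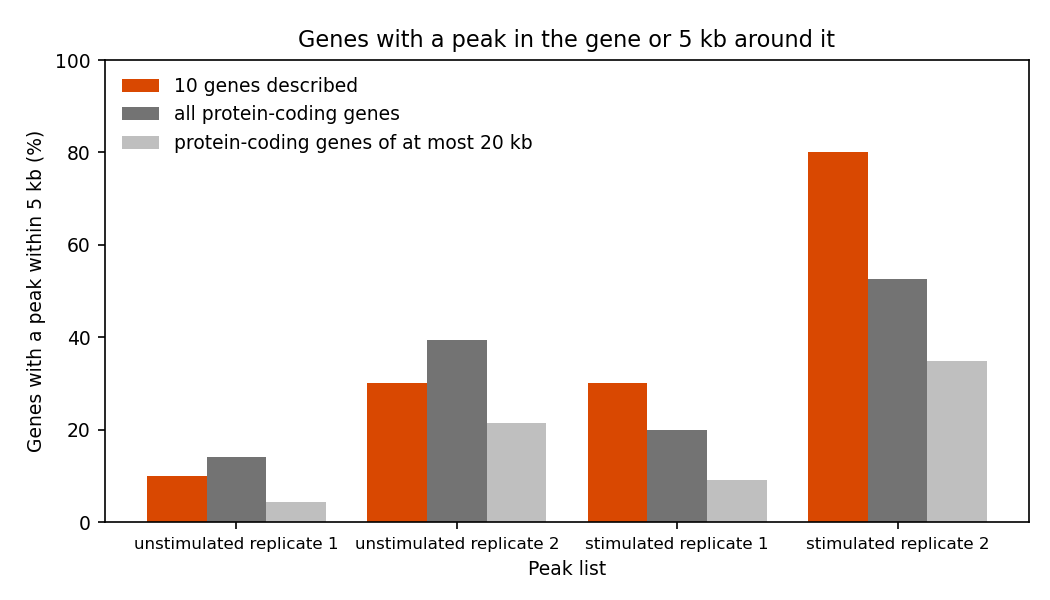
Bars give the percentage of genes (y axis) with a peak in the gene or the 5 kb around it in each of the 4 peak lists (x axis), for the 10 genes described, all 21911 protein-coding genes and the 11759 of at most 20 kb. The 10 genes reach 80.0% in stimulated replicate 2, where all genes reach 52.5%, and 10.0% to 30.0% in the other 3 lists.

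Both stimulated lists had a peak in the window of 3 of the 10 genes, against 15.3% of all genes, and of 2 of the 9 shorter ones, against 4.36% of the genes of at most 20 kb. Both unstimulated lists had one at 1 of 10, *Fhl2* (9.11% of all genes), and at least 1 unstimulated list had one at 3 of 10 (44.2% of all genes), or 2 of the 9 shorter ones (24.7%). The share of genes marked without stimulation was thus not above the background. A peak in the stimulated pair alone was found for 1 gene, *Ctgf*, against 3.85% of all genes and 2.7% of the shorter ones, and in the unstimulated pair alone for 0 of 10 (0.867% and 0.544%). Stimulated replicate 2 was the only list with a peak at 5 genes (18.1% and 21.7%), unstimulated replicate 2 at 1 (9.03%), and 1 gene had no peak in any list (31.1% and 47.5%). The marks on these 5 genes were thus seen in 1 of 2 stimulated samples. Without stimulated replicate 2, the remaining stimulated list held 3 of the genes, and the unstimulated lists held 2 on average.

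**Figure D2:**
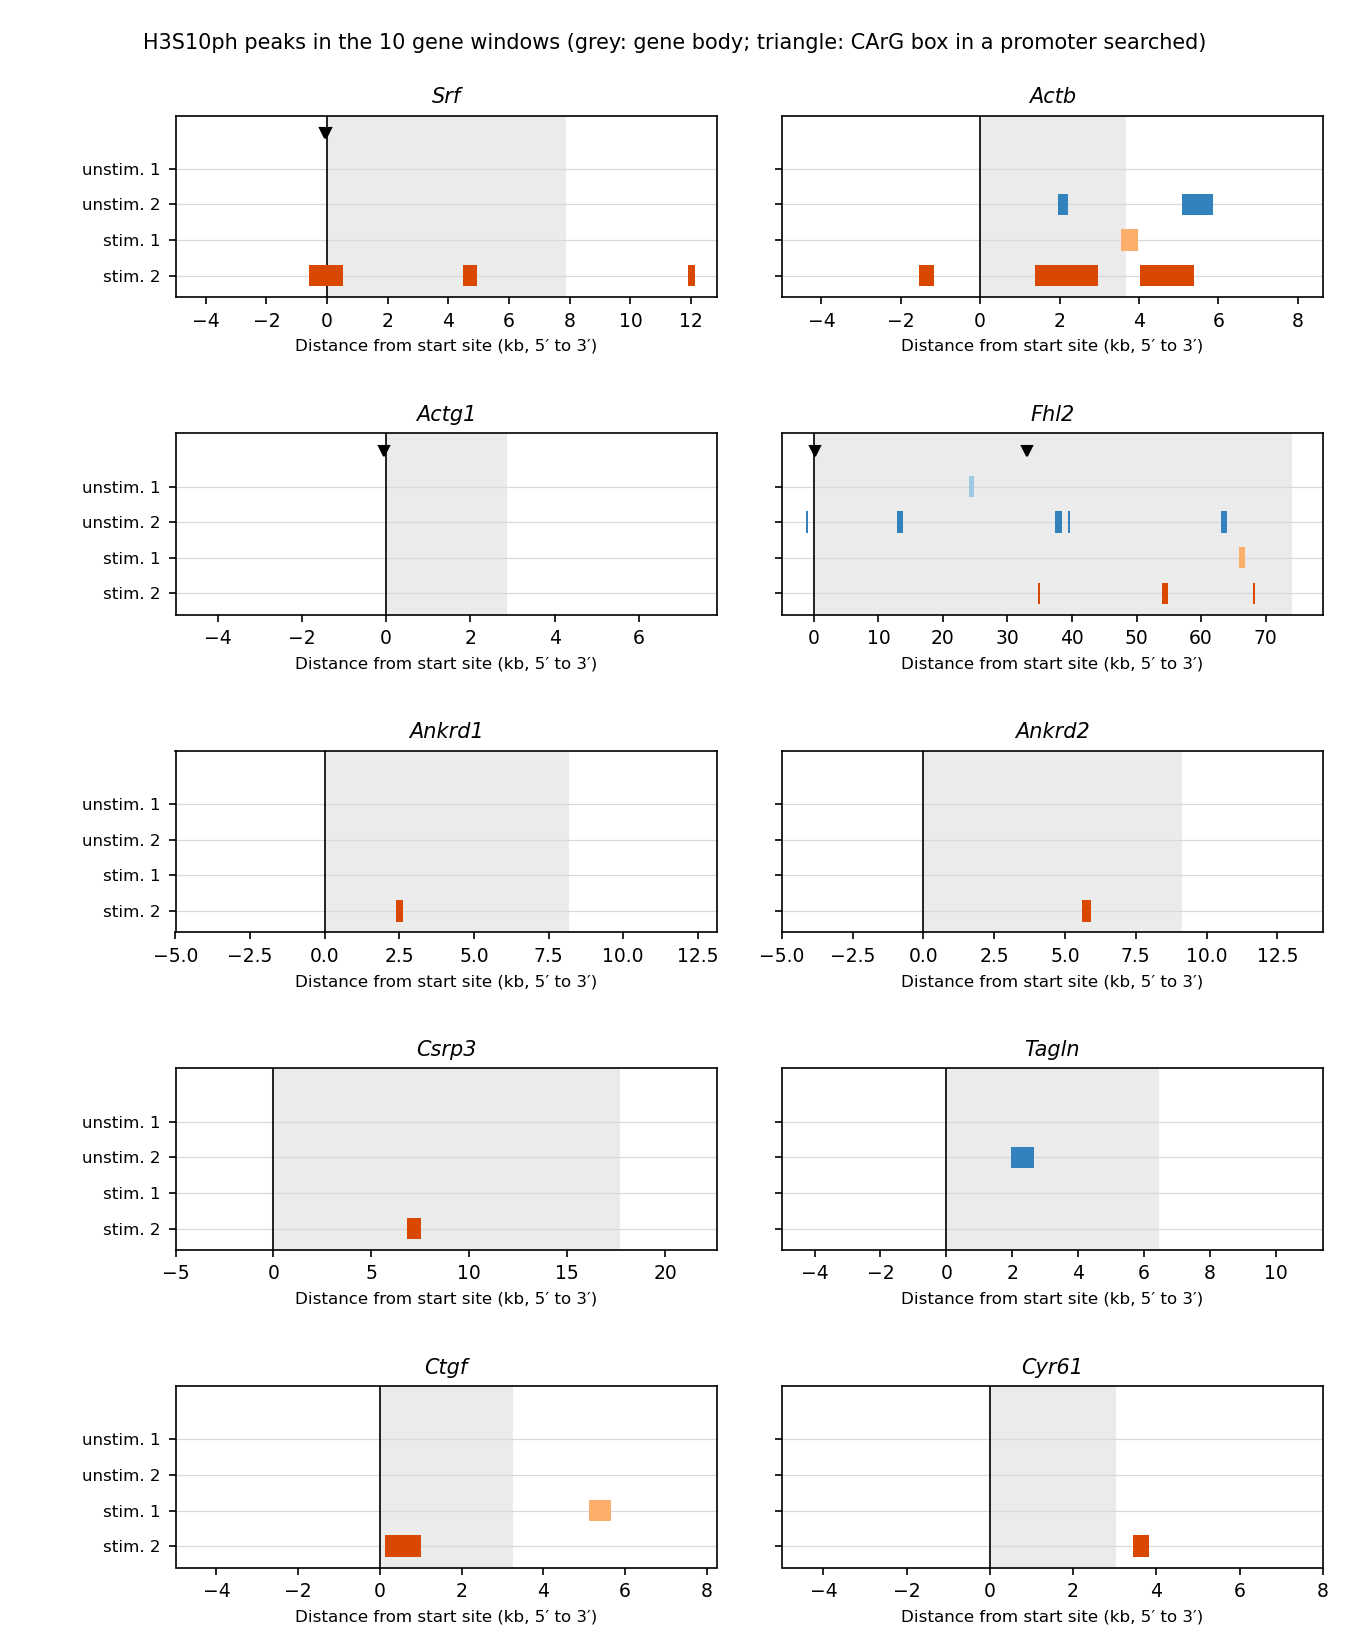
Each panel plots the window of 1 gene, with the distance from its annotated start on the x axis (kb, 5′ to 3′) and 1 line per peak list, where coloured bars are H3S10ph peaks, grey is the gene body and triangles are CArG boxes in the promoters searched. Peaks of the 2 stimulated lists share no base in any panel, and among all protein-coding genes 1.28% have such an overlap. Only *Srf* has a peak over its start site.

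*Srf* lies on the minus strand of chromosome 17, 46548329 to 46556175. It had no peak in either unstimulated list or in stimulated replicate 1, where the nearest peaks to the gene lay 347 kb, 40.5 kb and 12.5 kb away. In stimulated replicate 2 it had 3 peaks. The first, from 46555643 to 46556777, ran from −602 to 532 bp relative to the start site, with 533 bp of the first exon, of which 186 bp were coding. It covered the whole 250 bp of the promoter shown above, so that both CArG boxes, which begin at −82 and −62 from the RefSeq start, lay under it. This was the 1 promoter of the 9 searched that any peak reached, and the share of all promoters that a peak reached was not computed. Fold enrichment of this peak over the background was 2.17 with a −log10 p of 2.39, which gave rank 10419 of 40683, or 25.6% from the top.

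A second *Srf* peak, from 46551222 to 46551680, held 150 bp of coding exon and 309 bp of intron. Its fold enrichment of 2.27 gave rank 4973, or 12.2% from the top, the best rank of the gene. The third peak began 4040 bp beyond the 3′ end, within the neighbouring gene *Cul9*, and its fold of 2.01 was shared by 8179 peaks of the list. Peaks covered 12.6% of the *Srf* gene body in stimulated replicate 2, a share that 1.97% of all genes and 3.55% of those of at most 20 kb reached in this list, and 0% in the other 3 lists. A long noncoding RNA gene, *Gm26904*, overlaps all 3 peaks on the other strand, and ChIP reads do not tell the strands apart.

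Of the cytoplasmic actins, *Actb* codes for β-actin and *Actg1* for γ-actin, the main actins of non-sarcomeric filaments. *Actb* (minus strand of chromosome 5, 142903115 to 142906754) was the gene with the largest covered share in the set. Peaks covered 0% and 6.95% of the gene in the unstimulated lists and 2.36% and 43.8% in the stimulated lists, replicate 1 first. Stimulated replicate 1 thus lay between the unstimulated values, and stimulated replicate 2 lay above all others. In stimulated replicate 2 only 0.233% of all genes, or 0.417% of those of at most 20 kb, were covered by this share or more.

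The peak of stimulated replicate 2 on the *Actb* gene body ran from 142903786 to 142905381, over 922 bp of exon and 674 bp of intron, with a fold of 2.17 and rank 10639. It contained the peak of unstimulated replicate 2, from 142904534 to 142904786, which had a fold of 2.22 and rank 5462 of 32740. Downstream of *Actb*, a peak of 1364 bp in stimulated replicate 2 (fold 2.28, rank 4663) overlapped one of 787 bp in unstimulated replicate 2 (fold 2.27, rank 3786). These 2 places were the only ones in the 10 windows where peaks of different lists met, and both joined replicate 2 of one condition with replicate 2 of the other. Such an overlap was found in the windows of 2.75% of all genes. None of the 10 genes had one between unstimulated replicate 1 and any other list (0.539%, 0.297% and 0.712% of all genes, for unstimulated replicate 2, stimulated replicate 1 and stimulated replicate 2) or between unstimulated replicate 2 and stimulated replicate 1 (0.936%), and none had one between the 2 stimulated lists (1.28%). At shares this low, 0 of 10 cannot be told from the background. In stimulated replicate 1 the single *Actb* peak, from 142902783 to 142903200, crossed the 3′ end of the gene with 86 bp of its last exon and met no other peak. Its fold was 2.25, at 55.7% from the top of the list. *Actb* thus carried the mark without stimulation in 1 list, and its start site was under no peak in any list.

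*Actg1* (minus strand of chromosome 11, 120345690 to 120348542) had no peak in its window in any list. The nearest peaks to the gene lay 615 kb and 24.2 kb away in the unstimulated lists and 230 kb and 10.5 kb away in the stimulated lists. Its exons are uncertain, because reads that map to several places were removed and 84.0% of the exon bases had a match of at least 50 bases and 98% identity elsewhere in the genome. The exons of the other 9 genes had 0 such matches. Introns and flanks of the *Actg1* window of 12853 bp were not searched for copies, and whether reads were lost was not tested. Of all genes of at most 20 kb, 47.5% had no peak in any list. The CArG box of *Actg1*, shown above, begins at −90 from the RefSeq start.

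*Fhl2*, *Csrp3*, *Ankrd1* and *Ankrd2* code for proteins of the sarcomere and nucleus that are known to respond to load. FHL2 is a LIM-domain protein that binds titin and also SRF, CSRP3 is the muscle LIM protein of the Z-disc, and ANKRD1 and ANKRD2 are ankyrin repeat proteins that bind titin. *Fhl2* (minus strand of chromosome 1, 43123074 to 43196984) was the only one of the 10 with a peak in all 4 lists, and it held 10 of the 26 peaks. Its window of 83.9 kb made up 35.6% of the summed windows. Peaks covered 1.05% and 4.43% of *Fhl2* in the unstimulated lists and 1.25% and 2.03% in the stimulated lists, so that the stimulated values lay between the unstimulated ones.

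Of the 10 *Fhl2* peaks, 9 lay in introns and 1 lay at −1243 to −903 bp from the annotated start, in unstimulated replicate 2. None overlapped a peak of another list. The highest ranks were 3516, or 8.64% from the top, in stimulated replicate 2 and 3640, or 11.1%, in unstimulated replicate 2, with folds of 2.31 and 2.27. The peaks of the shorter lists stood lower, at 60.3% from the top in unstimulated replicate 1 and 84.9% in stimulated replicate 1. The 2 CArG boxes of *Fhl2*, which begin at −96 from the outer and −31 from the inner RefSeq start, lay under no peak.

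*Ankrd1* (chromosome 19, 36111961 to 36120099, minus strand), *Ankrd2* (chromosome 19, 42036000 to 42045110, plus strand) and *Csrp3* (chromosome 7, 48830398 to 48848033, minus strand) each had a single peak, in stimulated replicate 2. These peaks were 219, 288 and 761 bp wide and lay in introns, from 2396, 5616 and 6798 bp after the start site. All 3 had a fold of 2.01 and a −log10 p of 2.03, values that 8179 of the 40683 peaks shared, at ranks 31585 to 39763. They covered 2.69% of *Ankrd1*, 3.16% of *Ankrd2* and 4.32% of *Csrp3*. As much or more was covered of 17.3% of all genes for *Ankrd1* and 14.6% for *Ankrd2*, and of 10.0% for *Csrp3*. Both GGAATG sites before the RefSeq start of *Ankrd1*, at −210 and −123 from it, lay under no peak. That start lies inside the annotated gene, so both sites fall within the gene body used here.

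*Tagln* codes for transgelin, an actin-binding protein of smooth muscle, and lies on the minus strand of chromosome 9, 45929619 to 45936058. It was the only one of the 10 genes with a peak in unstimulated muscle alone. That peak, of 723 bp in an intron, covered 11.2% of the gene in unstimulated replicate 2, a share that 0.771% of all genes reached there. Its fold of 2.02 was shared by 7684 peaks, at ranks 24254 to 31937 of 32740. In stimulated replicate 2 the nearest peak lay 5.08 kb from the gene, just outside the window.

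*Ctgf* and *Cyr61*, named *Ccn2* and *Ccn1* in the annotation, code for secreted matricellular proteins of the CCN family. *Ctgf* lies on the plus strand of chromosome 10, 24595442 to 24598683. Its nearest peaks in the unstimulated lists were 95.0 and 77.5 kb away. Stimulated replicate 1 had a peak here, and that peak, from 24600548 to 24601098, began 1865 bp beyond the 3′ end, with a fold of 2.4 and a −log10 p of 2.94. These were the highest values of the 26 peaks and gave rank 2241 of 10901, or 20.6% from the top. In stimulated replicate 2 a peak from 24595575 to 24596446 lay 133 to 1004 bp after the start site, over 624 bp of exon and 248 bp of intron, and covered 26.9% of the gene. That share was reached by 0.602% of all genes in the list, while the fold of 2.09 gave rank 20324, at 50.0% from the top. The peaks of the 2 samples thus lay at opposite ends of the gene.

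*Cyr61* (minus strand of chromosome 3, 145646976 to 145649981) had 1 peak, in stimulated replicate 2. It began 428 bp beyond the 3′ end, was 403 bp wide and had a fold of 2.21, at rank 7954 or 19.6% from the top. No peak of any list lay on the gene body itself. Its GGAATG site, on the other strand and at −103 from the RefSeq start, was also under none.

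**Figure D3:**
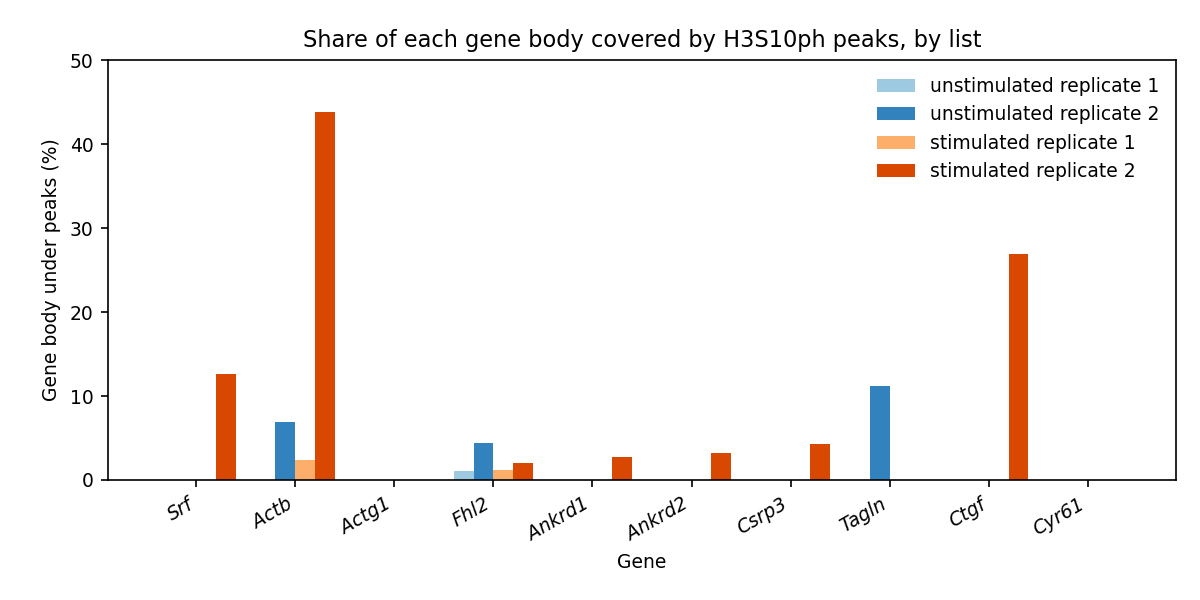
Bars give the percentage of each gene body under peaks (y axis) for the 10 genes (x axis) in each of the 4 lists. *Actb* at 43.8% and *Ctgf* at 26.9% stand highest, each in stimulated replicate 2, and *Tagln* at 11.2% is highest in unstimulated replicate 2.

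The covered share of the gene body was compared between conditions for each gene. It was 23.1% ± 29.3 (SD, n = 2) in stimulated and 3.48% ± 4.91 (SD, n = 2) in unstimulated muscles for *Actb*, 13.4% ± 19 (SD, n = 2) against 0% for *Ctgf*, and 6.32% ± 8.94 (SD, n = 2) against 0% for *Srf*. For *Fhl2* it was 1.64% ± 0.552 against 2.74% ± 2.38 (SD, n = 2). The exact permutation test, two-sided, gave a p of 0.667 for *Actb* and of 1 for each of the other 9 genes. With 2 samples against 2 the smallest p is 0.333, so this test cannot reach significance. For *Actb* and *Fhl2* the difference was smaller than the spread between replicates of one condition. For *Srf* and *Ctgf* this holds whatever the covered share, because their gene bodies were covered in stimulated replicate 2 alone.

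Over the 10 windows together, peaks covered 0.330% and 2.28% in the unstimulated lists and 0.802% and 3.91% in the stimulated lists. Over the windows of all protein-coding genes they covered 0.192% and 0.730% in the unstimulated and 0.260% and 1.31% in the stimulated lists. The 10 windows were thus covered more than the average window in each of the 4 lists, with and without stimulation, although in unstimulated replicate 1 through *Fhl2* alone. The mean was 2.36% ± 2.20 (SD, n = 2) in stimulated and 1.30% ± 1.38 (SD, n = 2) in unstimulated muscles, a difference of 1.05 percentage points that turned to −0.502 without stimulated replicate 2 and fell to 0.0787 without unstimulated replicate 1, the list with peaks on chromosome X. Within replicate 1 the difference was 0.472 and within replicate 2 it was 1.63 percentage points.

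All 26 peaks were weak. Their −log10 p lay between 2.03 and 2.94, and 0 of 26 reached 3. Among all peaks, 12.9% and 2.93% of those called in unstimulated and 17.7% and 3.22% of those called in stimulated muscle reached it. A −log10 p of 2.5 was reached by 10 of the 26, on *Srf*, *Actb*, *Fhl2* and *Ctgf*. These were 1 of 1 and 3 of 8 peaks in the unstimulated lists and 2 of 3 and 4 of 14 in the stimulated lists. Among all peaks, 60.9% and 16.5% in the unstimulated and 65.6% and 17.5% in the stimulated lists reached 2.5. The q-value was below 1 for 1 peak, that beyond the 3′ end of *Ctgf* in stimulated replicate 1, where it was 0.987. With peaks of at least 2.5, the 4 lists held 1, 2, 2 and 3 of the genes, and the share of all genes at this threshold is not given here. By position, 17 peaks lay within a gene body, 5 downstream, 2 upstream, 1 over a 3′ end and 1 over a start site.

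**Figure D4:**
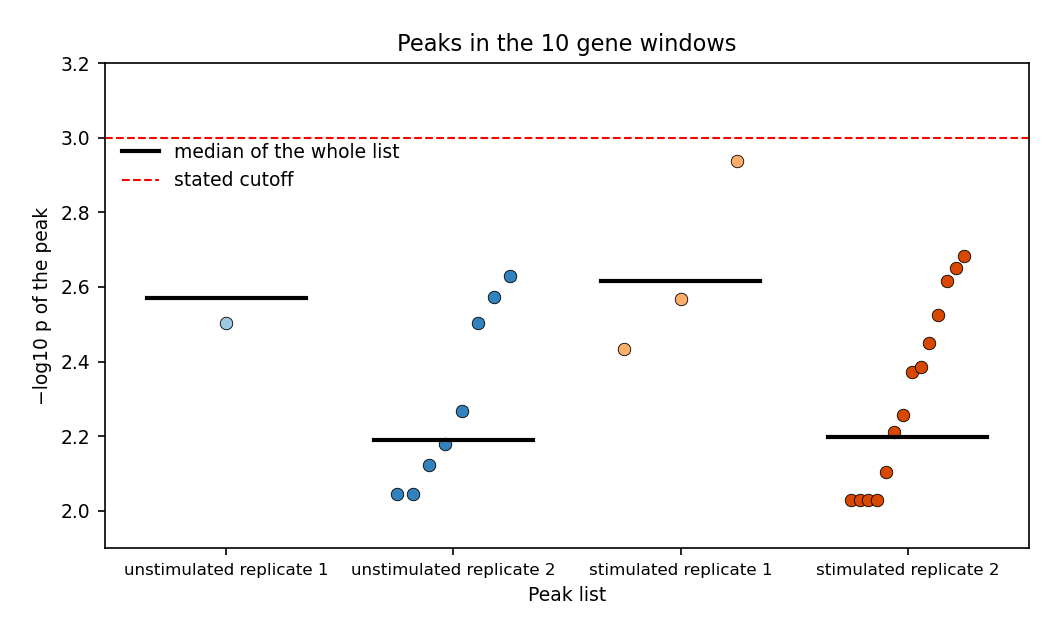
Points give the deposited −log10 p (y axis) of each of the 26 peaks in the 10 gene windows by peak list (x axis). Black lines give the median of all peaks of that list, and the dashed line a value of 3, which corresponds to the cutoff stated in the methods. All points lie between 2.03 and 2.94, below the dashed line at 3.

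Relatives of the 10 genes and other genes of the pathway were read in the same way. These lists were made with earlier results of the data known, so their counts are descriptions. The counts below are to be read against 14.0% and 39.3% of all genes with a peak in the unstimulated lists, 19.9% and 52.5% in the stimulated lists, and 15.3% in both stimulated lists. For a peak in both unstimulated lists the share of all genes was 9.11%. Of 18 family relatives, 2 and 7 had a peak in the unstimulated lists (11.1% and 38.9%) and 5 and 12 in the stimulated lists (27.8% and 66.7%). Both stimulated lists had a peak at *Acta1*, *Fhl3*, *Ankrd23*, *Mef2a* and *Mef2c*, or 27.8% of the list. *Acta1*, the skeletal muscle α-actin, differed from *Actb* in having overlapping peaks in 3 lists, of 3608 bp in unstimulated replicate 2 and of 2098 and 2381 bp in the stimulated lists. Their −log10 p was 3.55, 3.43 and 3.36, at ranks 175, 732 and 464 of their lists. *Ankrd23*, the third ankyrin repeat protein of this titin-binding family, had overlapping peaks of 301 bp in unstimulated replicate 2, 2063 bp in stimulated replicate 1 and 4010 bp in stimulated replicate 2. *Fhl3* had 2 peaks in each stimulated list and 0 in the unstimulated lists, and none of the 4 overlapped. *Mef2a* and *Mef2c*, MADS-box factors like SRF, had peaks in all 4 lists on genes of 142 and 163 kb.

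Of 14 genes for SRF cofactors and upstream actin signalling, 2 and 9 had a peak in the unstimulated lists (14.3% and 64.3%) and 6 and 11 in the stimulated lists (42.9% and 78.6%). Both stimulated lists had a peak at 6 of 14 (42.9%), namely *Mrtfa*, *Mrtfb*, *Myocd*, *Abra*, *Rock2* and *Diaph1*. Both unstimulated lists had one at *Mrtfb* and *Rock1* (14.3%, against 9.11% of all genes). *Abra*, which codes for STARS, a muscle actin-binding protein known to activate SRF through MRTFs, was the only one of these with peaks in both stimulated and in neither unstimulated list, or 7.14% of the list against 3.85% of all genes. In stimulated replicate 2 a peak of 4077 bp covered 72.2% of this gene, and it overlapped both peaks of stimulated replicate 1, of 256 and 501 bp. The ranks of these peaks were 7897 of 40683 and 7018 and 5243 of 10901. The highest peaks of the list were narrow and in stimulated replicate 1 alone, on *Mrtfb* (278 bp, fold 3.02, rank 51) and *Mrtfa* (267 bp, fold 2.84, rank 157).

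Of 16 other SRF targets of the cytoskeleton, 1 and 8 had a peak in the unstimulated lists (6.25% and 50.0%) and 7 and 14 in the stimulated lists (43.8% and 87.5%). Both stimulated lists had a peak at 7 of 16 (43.8%), *Tpm1*, *Tpm2*, *Actn4*, *Myh9*, *Tln1*, *Cald1* and *Lmod1*. Neither unstimulated list had one at 4 of these, *Tpm2*, *Actn4*, *Tln1* and *Lmod1*, against 3.85% of all genes. The windows of *Tpm2* (a tropomyosin) and *Tln1* (talin) lie side by side and share a peak of stimulated replicate 2. None of the 16 genes had overlapping peaks of the 2 stimulated lists, against 1.28% of all genes. *Tpm1* had 5 peaks in unstimulated replicate 2 and 3 in stimulated replicate 1, of which 2 pairs overlapped.

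Of 16 Hippo pathway genes, 3 and 9 had a peak in the unstimulated lists (18.8% and 56.2%) and 5 and 15 in the stimulated lists (31.2% and 93.8%). Both stimulated lists had a peak at 5 of 16 (31.2%), *Tead1*, *Tead4*, *Lats1*, *Stk3* and *Stk4*. Both unstimulated lists had one at *Yap1*, *Stk4* and *Nf2* (18.8%, against 9.11% of all genes). *Lats1*, a kinase that restrains YAP, was the 1 gene of 16 with peaks in both stimulated and in neither unstimulated list (3.85% of all genes), and these peaks did not overlap. Over the 4 lists, 26 genes met one of these conditions, and 16 of their 189 peaks reached a −log10 p of 3. Many of these genes are longer than the 10 described first, and a longer window meets more peaks.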

How the data were processed

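Per the paper's methods and the submitters' processing notes, the authors aligned the reads to mm10 with BWA and dropped multi-mapping ones with bamtools 2.4.0. They then cut the replicates to equal depth by down-sampling, and MACS2 2.1.1 called broad peaks in each sample with input DNA as control. Each deposited peak carries a fold enrichment (a ratio to local background), and its p-value and q-value are deposited as −log10. Replicates were not pooled, and depth is unknown. The labels name no difference between the samples of a condition other than the replicate number. The lists of replicate 2 were longer than those of replicate 1 in both conditions, and the source of this was not tested. The spread between replicates holds this difference as well as that between 2 pools of mice.

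Gene bodies were those of GENCODE M21 (1 gene per symbol, autosomes, X and Y), and a peak counted with at least 1 bp in the gene or the 5 kb on each side. Ranks are by fold enrichment within a list, and peaks of equal fold share the first rank. Overlaps were computed in Python 3.11.15 (numpy 2.4.6, pandas 2.3.3, scipy 1.17.1), checked on simulated peaks against bedtools 2.31.1. Figures used matplotlib 3.10.9. Copies of exons were searched with blastn 2.17.0. Windows of neighbouring genes overlap, so sums over all windows count some bases more than once. No set test was run. The genes named are the 10 members and, of the other lists, each gene with a peak in both lists of a condition. The members and lists were chosen with earlier results of these data known. Alternatives were other windows, stricter thresholds, lists of equal length, a minimum overlap, ranks by −log10 p, each sample left out and differences within replicate numbers. The score column and the paper's other experiments were not used here.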

Additional observations from a re-analysis of the deposited data

How the results depend on the processing

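Leaving out 1 sample in turn gave differences of 1 to 6 in the mean number of the 10 genes with a peak, 3 to 8 genes with a peak in every stimulated list, 1 to 6 with one in every stimulated and in no unstimulated list, 1 to 3 with one in an unstimulated list, and −0.502 to 2.61 percentage points in the covered share of the windows. The highest values, other than that for unstimulated lists, came without stimulated replicate 1, the lowest differences without stimulated replicate 2, and the count of 1 gene in an unstimulated list without unstimulated replicate 2. Without unstimulated replicate 1, the list with peaks on chromosome X, these counts were 3, 1 and 3, but the differences fell to 2.5 genes and 0.0787 percentage points. With gene bodies only, or 1 kb on each side, 0 genes had a peak in both stimulated and in neither unstimulated list, since the *Ctgf* peak of stimulated replicate 1 lies further out. With a minimum −log10 p of 2.5, or the 9094 top peaks of each list, the stimulated lists shared 1 gene, 0 were in these alone, and the differences were 1 and 1.5 genes and 0.122 and 0.208 percentage points, with 3 and 4 of the 10 genes in stimulated replicate 2. At 3, all counts were 0, including that of genes marked without stimulation. The shares of all genes at these thresholds are not given here. The difference for *Actb* was −2.29 percentage points at 2.5 and with lists of equal length and ranged from −1.11 (without stimulated replicate 2) to 40.4 with 1 sample left out, and that for *Fhl2* from −2.79 to 0.585 (without unstimulated replicate 2). With a flank of 10 kb or a minimum of 200 bp, the counts stayed within 1.5 times and the differences within 1 SD between replicates. With the 9 genes of at most 20 kb the difference in covered share was 2.28 percentage points, that in genes 3.5, and the counts were 2, 1 and 2. Ranks by −log10 p lay within 1.5 times of those by fold for 15 of 15. Differences within replicate numbers (the replicate block) were 2 and 5 genes and 0.472 and 1.63 percentage points, with means of 3.5 and 1.05. The labels do not say that equal numbers mark the same mice.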
